A study of Homo sapiens with 16 samples.

Results

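The subject is a set of 10 genes of the AP-1 and immediate early families: JUN, JUNB, JUND, FOS, FOSB, FOSL1, FOSL2, EGR1, IER3 and KLF6. They are 10 of the 22395 genes that the arrays name, and they were chosen by name with earlier results of these data known. The same holds for the lists of related genes below, so their shares beside those of all tested genes are descriptions. Each was read from the brightest probe set (a group of array probes that reports 1 transcript) naming that gene alone, and all 10 had such a probe set. RNA came from DLD1 and HCT116, both established lines of human colorectal carcinoma, each present as a pair of derivatives engineered at PIK3CA, which encodes p110 alpha, a lipid kinase of growth factor signalling. Knockout of the wild-type allele gave the Mut derivative, which keeps the mutant allele. Knockout of the mutant allele gave the WT derivative. Cells were kept for 24 h in DMEM with 10% dialyzed fetal bovine serum, either with glutamine or without it. The resulting 8 groups (DLD1 Mut, DLD1 WT, HCT116 Mut and HCT116 WT, each with and without glutamine) held 2 arrays each, 16 in all, labelled as biological replicates. Both genotypes of a line are engineered derivatives, parental cells are not among the samples, and each genotype of a line is 1 derivative, so genotype and derivative cannot be told apart.

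AP-1 is a family of dimeric transcription factors built from JUN and FOS proteins, which hold together through leucine zippers and bind short palindromic DNA elements. JUN proteins pair with themselves or with FOS proteins, whereas FOS proteins usually need a partner from another family, such as JUN. Many of these genes are immediate early genes, which growth factors and stress switch on without new protein synthesis, through mitogen-activated kinases, serum response factor and the factors already bound at their promoters. EGR1 and KLF6 are zinc finger transcription factors of the same early wave, and IER3 is a short-lived membrane-associated protein linked to cell survival. In colorectal epithelium, JUN and FOSL1 are known for their links to growth, invasion and stress.

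Of the 10 genes 8 matched the RefSeq promoter table of build GRCh38.p14, which gives 250 bases before and 50 bases after each gene's start. JUN and KLF6, the members with the largest mean rise without glutamine, both hold the letters TGACATCA, the form of AP-1 element known from the JUN promoter. FOSL2 is shown for TGACTCA, the classical AP-1 element, JUND for TGACGTCA, the cyclic AMP response element, and EGR1 for a pair of CArG boxes, the element of serum response factor. Capitals mark these matches, and every sequence reads 5′ to 3′ on the gene's strand.
JUN: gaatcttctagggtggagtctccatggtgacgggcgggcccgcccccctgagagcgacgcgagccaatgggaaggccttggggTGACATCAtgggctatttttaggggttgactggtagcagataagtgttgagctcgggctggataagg
KLF6: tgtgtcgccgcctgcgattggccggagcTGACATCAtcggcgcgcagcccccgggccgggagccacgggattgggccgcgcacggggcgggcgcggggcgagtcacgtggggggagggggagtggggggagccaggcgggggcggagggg
FOSL2: tgccattgtagTGACTCAtctcgggcaga
JUND: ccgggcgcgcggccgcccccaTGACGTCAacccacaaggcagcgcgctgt
EGR1: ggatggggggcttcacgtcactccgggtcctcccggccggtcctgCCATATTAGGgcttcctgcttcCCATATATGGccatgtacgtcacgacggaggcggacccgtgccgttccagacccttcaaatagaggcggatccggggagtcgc

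The JUN stretch is chr1:58784048-58784197 on the minus strand, with the match from base -67 to base -60 counted from the start. The KLF6 stretch is chr10:3785260-3785409 on the minus strand, with the match from -172 to -165. The FOSL2 stretch is chr2:28392851-28392879 on the plus strand, and its match lies at bases 5 to 11 of the gene. The JUND stretch is chr19:18281794-18281843 on the minus strand, with the match from -200 to -193, and the EGR1 stretch is chr5:138465329-138465478 on the plus strand, with matches from -105 to -96 and from -83 to -74. On either strand, TGACATCA occurs in 2.61% of the 35116 promoters of the table, TGACTCA in 4.95%, TGACGTCA in 1.85% and the CArG box in 1.29%. A match describes letters, not a bound site, and no link between these letters and the changes was tested. Of the other letters searched, TATAAA (11.5% of promoters) was in JUNB, FOS and FOSB, and CCAAT (34.6%) in JUN, JUNB, JUND and KLF6. GGGCGG (45.0%) was in 6 of the 8 members, and GCGNGGGCG, the EGR element (9.43%), in EGR1 and KLF6. TGATGNAA, the amino acid response element (3.62%), was in none. These percentages cover all promoters of the table, and the tested genes differ from them. Of the 11727 other tested genes with a promoter there, GGGCGG was in 8513, CCAAT in 4888, GCGNGGGCG in 2134 and TATAAA in 1104. TGACTCA was in 588, TGACGTCA in 408, TGATGNAA in 347, TGACATCA in 290 and the CArG box in 184.

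Levels are the log2 of the deposited intensity, so that 1 unit is a 2-fold difference. A gene was called where limma's test over the 15676 genes in the upper 70% of mean level gave a Benjamini-Hochberg adjusted p under 0.05, and all 10 members lay within that 70%. Errors are standard errors (SE) of the log2 difference, with 2 arrays a group. The labels do not say that the replicates were cultured apart, so these p-values measure the spread between these samples. Median deposited intensity ran from 3.57 to 3.70 over the 16 arrays. All 12 colon epithelial markers with a probe set, among them EPCAM, CDH1 and VIL1, were in the upper 70%, against 2 of 8 fibroblast, 2 of 9 leukocyte (CD68 and TYROBP, with PTPRC and CD3E below it) and 1 of 6 endothelial markers. The summed log2 level of the epithelial markers was 71.6 to 72.8 in HCT116 WT with glutamine and 76.5 to 76.9 without, and 70.9 to 72.5 over the 4 HCT116 Mut arrays. In DLD1 the epithelial sum was lower without glutamine, at 76.7 to 76.8 against 78.8 to 79.9 in Mut and 78.5 to 78.7 against 80.7 to 81.5 in WT, and 3 of the 12 markers fell and 1 rose in each. In HCT116 WT 5 of the 12 rose and in HCT116 Mut 1 fell. That of the leukocyte markers was 17.1 to 18.1 and 19.5 to 21.0 in HCT116 WT, and 16.4 to 16.5 and 18.1 to 19.4 in HCT116 Mut, and 15.5 to 19.5 over the 8 DLD1 arrays. The part of either marker list in the results was not tested. As RNA of whole cultures was measured, fewer cells of a kind and less RNA per cell cannot be told apart.

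Without glutamine, JUN and FOSL1 rose in all 4 derivatives, and KLF6 and FOSL2 rose in DLD1 Mut, DLD1 WT and HCT116 Mut. JUNB rose in 3 derivatives, DLD1 Mut being the exception, and IER3 fell in both DLD1 derivatives and rose in both HCT116 derivatives. FOS and FOSB, the members best known from serum stimulation, passed the test in none of the 4. Counted by derivative, 4 members rose and 1 fell in DLD1 Mut, where 33.6% of all tested genes were called, 16.8% higher and 16.8% lower. In DLD1 WT 6 rose and 1 fell, with 27.0% of all tested genes called, 14.0% higher and 13.0% lower. In HCT116 Mut 8 rose and 0 fell, with 32.9% called, 16.4% higher and 16.5% lower. In HCT116 WT 4 rose and 0 fell, with 20.3% called, 10.3% higher and 10.1% lower. In both HCT116 derivatives limma's test gave 0 falls at an unadjusted p under 0.05 as well. The arrays with and without glutamine did not overlap for 7, 9, 10 and 8 members in the same order, against 65.1%, 62.7%, 63.5% and 57.5% of all tested genes, so that non-overlap is common with 2 arrays a group. The median change of the 10 members was -0.01, 0.52, 0.70 and 0.26 in these derivatives, against -0.03, 0.01, 0.00 and 0.01 over all tested genes. Averaged over the 4 derivatives, 7 members rose and 0 fell (47.7% of all tested genes called, 24.3% higher and 23.5% lower), and at an unadjusted p under 0.05 8 rose and 1 fell.

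**Figure D1:**
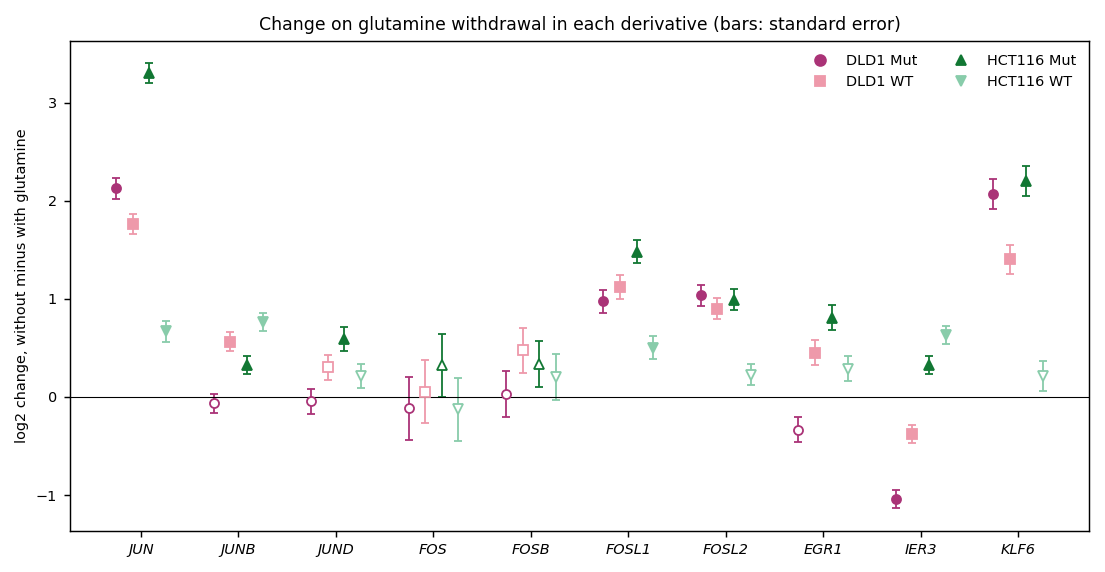
Log2 change without minus with glutamine (vertical axis) of the 10 genes (horizontal axis) in each derivative, with bars of 1 standard error and filled symbols where the adjusted p was under 0.05. JUN in HCT116 Mut stands highest at 3.30, KLF6 in HCT116 WT lies near the zero line at 0.21, and IER3 is the gene whose filled symbols lie on both sides of zero.

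The largest response was that of JUN (probe set 16687875; chr1:58780791-58784047), the founding subunit of AP-1. In DLD1 Mut its level was 7.19 and 7.35 with glutamine and 9.36 and 9.44 without. In DLD1 WT it was 6.83 and 6.97 with glutamine and 8.61 and 8.73 without. In HCT116 Mut it was 6.85 and 6.99 with glutamine and 10.20 and 10.24 without, and in HCT116 WT 7.04 and 6.87 with glutamine and 7.58 and 7.66 without. With glutamine the arrays of all 4 derivatives lay between 6.83 and 7.35, and without it the 4 groups separated, with no overlap between neighbours in the order HCT116 Mut, DLD1 Mut, DLD1 WT, HCT116 WT. The change was 2.13 ± 0.10 in DLD1 Mut (4.36-fold; adjusted p = 9.16e-07), 1.77 ± 0.10 in DLD1 WT (3.40-fold; 2.97e-06), 3.30 ± 0.10 in HCT116 Mut (9.85-fold; 1.05e-07) and 0.67 ± 0.10 in HCT116 WT (1.59-fold; 0.00122). The rise in HCT116 Mut exceeded that in HCT116 WT by 2.63 ± 0.15 (adjusted p = 4.86e-05). In DLD1 the same excess was 0.36 ± 0.15 (adjusted p = 0.287), with a 95% interval of 0.03 to 0.69. Averaged within a line, the rise in DLD1 minus that in HCT116 was -0.04 ± 0.10 (adjusted p = 0.839; 95% interval -0.27 to 0.19).

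JUNB (probe set 16858710; chr19:12791486-12793315), a JUN relative that often opposes JUN in cell growth, was higher in WT than in Mut without glutamine in both lines. Its level in DLD1 Mut was 8.40 and 8.45 with glutamine and 8.34 and 8.38 without, and in DLD1 WT 8.69 and 8.63 with glutamine and 9.23 and 9.21 without. HCT116 Mut had 8.20 and 8.21 with glutamine and 8.50 and 8.55 without, and HCT116 WT had 8.64 and 8.50 with glutamine and 9.22 and 9.46 without. Without glutamine both WT groups lay above both Mut groups, and with glutamine the WT arrays were again the higher ones in each line. JUNB rose by 0.56 ± 0.10 in DLD1 WT (1.48-fold; adjusted p = 0.00143), by 0.76 ± 0.10 in HCT116 WT (1.70-fold; 0.000334) and by 0.32 ± 0.10 in HCT116 Mut (1.25-fold; 0.0232). The change in DLD1 Mut was -0.07 ± 0.10 (adjusted p = 0.671). The call in HCT116 Mut was lost without any 1 of the 4 arrays compared (adjusted p = 0.0626 to 0.105).

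JUND (probe set 16870384; chr19:18279694-18281622), the subunit usually present in resting cells, differed chiefly by line. Its 8 DLD1 arrays lay between 6.81 and 7.30. HCT116 Mut had 8.08 and 8.03 with glutamine and 8.60 and 8.69 without, and HCT116 WT had 8.17 and 7.91 with glutamine and 8.29 and 8.22 without. Every HCT116 array was above every DLD1 array. JUND rose in HCT116 Mut by 0.59 ± 0.13 (1.50-fold; adjusted p = 0.00432). The other changes were 0.30 in DLD1 WT (adjusted p = 0.104), 0.21 in HCT116 WT (0.280) and -0.04 in DLD1 Mut (0.840).

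**Figure D2:**
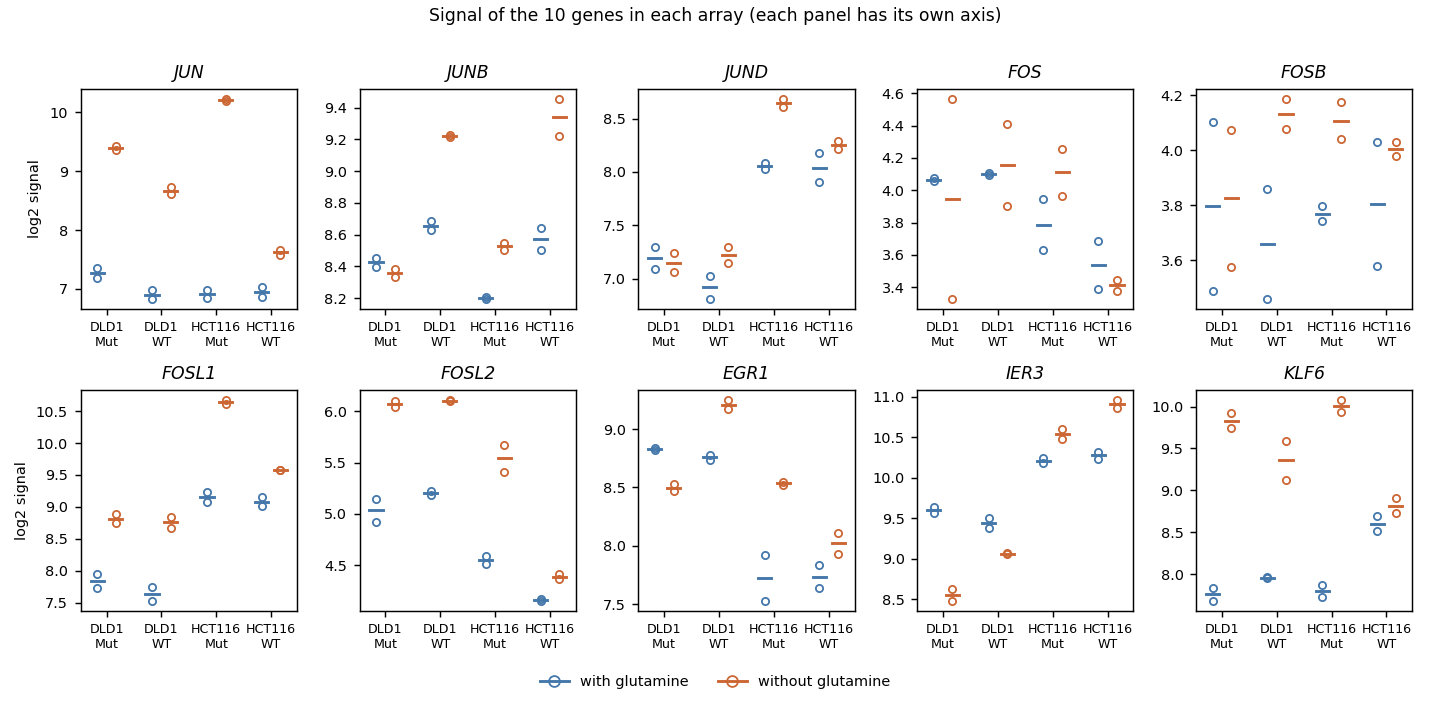
Log2 signal (vertical axis, a separate range in each panel) of each gene on every array, by derivative (horizontal axis). Open circles are arrays, short lines the means of 2 arrays, and colour gives glutamine. In the JUN panel the groups without glutamine fan out from 7.62 to 10.22 while those with glutamine stay between 6.90 and 7.27, and in the FOS panel the 2 DLD1 Mut arrays without glutamine are far apart, at 3.33 and 4.57.

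Among the FOS family, FOSL1 and FOSL2, whose proteins lack the strong activation domain of FOS, carried the response. FOSL1 (probe set 16740630; chr11:65892049-65900545) was at 7.96 and 7.73 with glutamine and 8.89 and 8.74 without in DLD1 Mut, and at 7.74 and 7.53 with glutamine and 8.68 and 8.84 without in DLD1 WT. HCT116 Mut stood at 9.08 and 9.24 with glutamine and 10.61 and 10.67 without, and HCT116 WT at 9.15 and 9.01 with glutamine and 9.59 and 9.58 without. All DLD1 arrays lay below all HCT116 arrays, and within each derivative the arrays without glutamine were the higher ones. The rise was 0.97 ± 0.12 in DLD1 Mut (1.96-fold; adjusted p = 0.000120), 1.12 ± 0.12 in DLD1 WT (2.18-fold; 7.66e-05) and 1.48 ± 0.12 in HCT116 Mut (2.79-fold; 1.02e-05). In HCT116 WT it was 0.50 ± 0.12 (1.42-fold; adjusted p = 0.0127), a call that was lost without replicate 2 with glutamine (0.0879) or without replicate 1 (0.0581) or 2 (0.0573) of the arrays without it. The rise in HCT116 Mut exceeded that in HCT116 WT by 0.98 ± 0.17 (adjusted p = 0.00605), and the same difference in DLD1 was -0.15 ± 0.17 (0.741).

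FOSL2 (probe set 16878443; chr2:28392858-28417317), the other FOS-related antigen, was higher in DLD1 than in HCT116 with glutamine, the reverse of FOSL1. Its level was 4.92 and 5.15 with glutamine and 6.10 and 6.05 without in DLD1 Mut, and 5.22 and 5.19 with glutamine and 6.11 and 6.10 without in DLD1 WT. HCT116 Mut had 4.59 and 4.52 with glutamine and 5.41 and 5.68 without, and HCT116 WT had 4.17 and 4.16 with glutamine and 4.36 and 4.41 without. None of its 7 pairs of neighbouring groups overlapped, where 33.3% of such pairs do not overlap over all tested genes. FOSL2 rose by 1.04 ± 0.11 in DLD1 Mut (2.05-fold; adjusted p = 4.27e-05), 0.90 ± 0.11 in DLD1 WT (1.87-fold; 0.000156) and 0.99 ± 0.11 in HCT116 Mut (1.99-fold; 6.28e-05). The change in HCT116 WT was 0.22 ± 0.11 (adjusted p = 0.176). The excess in HCT116 Mut over WT was 0.77 ± 0.15 (adjusted p = 0.0114), lost when each line was fitted separately (0.0726), and in DLD1 it was 0.14 ± 0.15 (0.734).

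FOS (probe set 16786587; chr14:75278828-75282230), the partner of JUN in classical AP-1, and FOSB (probe set 16863287; chr19:45467996-45475179), its close relative, were dim. Their mean levels stood at percentiles 56.8 and 56.8 of the genes, against 66.6 for FOSL2 and 88.9 to 98.8 for the other 7 members. FOS ranged from 3.33 to 4.57 over the 16 arrays, and both of these extremes were DLD1 Mut arrays without glutamine. FOSB ranged from 3.46 to 4.19. The FOS changes were -0.12 ± 0.32, 0.05 ± 0.32, 0.32 ± 0.32 and -0.12 ± 0.32 in DLD1 Mut, DLD1 WT, HCT116 Mut and HCT116 WT. Their 95% intervals reach from -0.84 in HCT116 WT to 1.04 in HCT116 Mut. The SE of 0.32 draws on the spread of all groups in the fit. The SD of FOS was largest in DLD1 Mut without glutamine (0.875), against a median of 0.206 over the groups. Without replicate 2 of DLD1 Mut without glutamine, the FOS change in DLD1 Mut was -0.73 (adjusted p = 0.0375). The FOSB changes were 0.03 to 0.47 ± 0.23 (adjusted p = 0.167 to 0.941), and the gene's other probe set gave -0.40 in HCT116 Mut (0.136) and -0.22 in HCT116 WT (0.481).

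KLF6 (probe set 16711280; chr10:3775996-3785209), a Krüppel-like factor that restrains growth in epithelia, came next to JUN in size. In DLD1 Mut it was at 7.69 and 7.84 with glutamine and 9.74 and 9.92 without, and in DLD1 WT at 7.97 and 7.95 with glutamine and 9.13 and 9.59 without. In HCT116 Mut it was at 7.87 and 7.73 with glutamine and 9.93 and 10.07 without, and in HCT116 WT at 8.51 and 8.69 with glutamine and 8.91 and 8.72 without. HCT116 WT was thus the highest of the 4 derivatives with glutamine and the lowest without it, with no overlap at either end. KLF6 rose by 2.07 ± 0.15 in DLD1 Mut (4.19-fold; adjusted p = 5.49e-06), 1.40 ± 0.15 in DLD1 WT (2.64-fold; 8.30e-05) and 2.20 ± 0.15 in HCT116 Mut (4.60-fold; 4.23e-06). In HCT116 WT the change was 0.21 ± 0.15 (adjusted p = 0.381). The rise in HCT116 Mut exceeded that in HCT116 WT by 1.99 ± 0.21 (adjusted p = 0.000660), and in DLD1 the excess was 0.67 ± 0.21 (0.176).

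EGR1 (probe set 16989736; chr5:138465479-138469303), an early growth response factor downstream of the ERK pathway, was called higher without glutamine in HCT116 Mut and DLD1 WT. Its level was 8.82 and 8.84 with glutamine and 8.53 and 8.46 without in DLD1 Mut, and 8.74 and 8.78 with glutamine and 9.25 and 9.17 without in DLD1 WT. In HCT116 Mut it was 7.53 and 7.92 with glutamine and 8.55 and 8.52 without, and in HCT116 WT 7.83 and 7.64 with glutamine and 7.93 and 8.11 without. DLD1 Mut was the one derivative in which the arrays without glutamine lay below those with it. EGR1 rose by 0.81 ± 0.13 in HCT116 Mut (1.75-fold; adjusted p = 0.000684) and by 0.45 ± 0.13 in DLD1 WT (1.37-fold; 0.0234), the latter call being lost without any 1 of the 4 DLD1 WT arrays (0.0678 to 0.115). The change in DLD1 Mut was -0.34 ± 0.13 (adjusted p = 0.0668). That EGR1 fall passed without either HCT116 Mut array with glutamine (0.0256 in each case), among genes above the median level (0.0411), with a trended robust variance (0.0182), with 10 added before the log (0.0349) and with each line fitted separately (0.0304). In HCT116 WT the EGR1 change was 0.29 ± 0.13 (0.150). The test of whether the Mut and WT responses differed called EGR1 in neither line. The difference was -0.79 ± 0.18 in DLD1 (adjusted p = 0.0710) and 0.52 ± 0.18 in HCT116 (0.0989). Averaged within a line, the EGR1 response in DLD1 was lower than that in HCT116 by 0.49 on the log2 scale (-0.49 ± 0.13; adjusted p = 0.0223). That call was lost without replicate 2 of DLD1 Mut without glutamine (0.0502), DLD1 WT without glutamine (0.0520), HCT116 WT with glutamine (0.0520) or HCT116 WT without it (0.0505).

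IER3 (probe set 17028909; chr6:30743199-30744547) moved in opposite directions in the 2 lines. In DLD1 Mut it was at 9.64 and 9.57 with glutamine and 8.63 and 8.49 without, and in DLD1 WT at 9.38 and 9.50 with glutamine and 9.06 and 9.08 without. In HCT116 Mut it was at 10.18 and 10.24 with glutamine and 10.60 and 10.48 without, and in HCT116 WT at 10.23 and 10.32 with glutamine and 10.95 and 10.86 without. The arrays with and without glutamine did not overlap in any derivative. IER3 fell in DLD1 Mut (-1.04 ± 0.09; 2.06-fold; adjusted p = 1.59e-05) and in DLD1 WT (-0.38 ± 0.09; 1.30-fold; 0.0116), and rose in HCT116 Mut (0.33 ± 0.09; 1.26-fold; 0.0185) and in HCT116 WT (0.63 ± 0.09; 1.55-fold; 0.000867). The response in DLD1 minus that in HCT116 was -1.19 ± 0.09 (adjusted p = 5.33e-05). The call in DLD1 WT was lost without replicate 2 with glutamine (0.0790) or without replicate 1 (0.0630) or 2 (0.0508) lacking it, and the call in HCT116 Mut was lost without replicate 1 with glutamine (0.0904), without replicate 1 lacking it (0.117), or with each line fitted separately (0.0606).

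IER3 has 10 probe sets on the array, which carried 4 distinct sets of values, since several gave identical numbers on every array, and near-identical copies of this gene's region can share signal. All 4 showed the fall in DLD1 Mut (-1.20 to -0.84), the rise in HCT116 Mut (0.33 to 0.54) and the rise in HCT116 WT (0.59 to 0.84) as called changes. In DLD1 WT the IER3 changes were -0.38 to -0.28, and 2 of the 4 passed (adjusted p = 0.0116 and 0.0425, against 0.0586 and 0.207).

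Between the Mut and WT derivatives of a line, 0 members in DLD1 and 1 in HCT116 were called with glutamine, and 4 and 8 without it. With glutamine no member was called in DLD1 (5.81% of all tested genes called, 2.60% higher and 3.20% lower in Mut). At limma's unadjusted p under 0.05, 1 member, JUN, was higher and 1, JUNB, lower in Mut in DLD1. The JUN difference of 0.37 (adjusted p = 0.0691) passed among genes above the median level (0.0384), with a trended robust variance (0.0140) and with 10 added before the log (0.0301). In HCT116 with glutamine KLF6 alone was called (3.23% of all tested genes, 1.12% higher and 2.12% lower), lower in Mut by 0.80 on the log2 scale (-0.80 ± 0.15; adjusted p = 0.0178). That KLF6 call was lost without any 1 of the 4 arrays compared (0.0503 to 0.117) and when the lines were fitted separately (0.0606). JUNB (-0.37 ± 0.10; adjusted p = 0.0675) and FOSL2 (0.39 ± 0.11; 0.0856) also passed at an unadjusted p under 0.05 in HCT116. The JUNB difference was called among genes above the median level (0.0333), with a trended robust variance (0.00681), with 10 added (0.0226) and without either HCT116 WT array lacking glutamine (0.0482 in each case), and the FOSL2 difference among genes above the median level (0.0461). Arrays of Mut and WT with glutamine did not overlap for 8 members in DLD1 and 3 in HCT116, against 49.8% and 45.9% of all tested genes. Each of these comparisons shares its arrays with the withdrawal comparisons above, and the values are given side by side.

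Without glutamine in DLD1, where 10.3% of all tested genes were called (4.36% higher and 5.91% lower in Mut), JUN was higher in Mut by 0.73 ± 0.10 (1.66-fold; adjusted p = 0.00184). JUNB (-0.86 ± 0.10; adjusted p = 0.000417), EGR1 (-0.71 ± 0.13; 0.00564) and IER3 (-0.51 ± 0.09; 0.00639) were lower in Mut. The IER3 call was lost without replicate 2 of DLD1 Mut lacking glutamine (0.0569). With another of its probe sets the IER3 difference was -0.16 (0.571). Mut and WT arrays did not overlap for 7 members, against 55.7% of all tested genes. KLF6 differed by 0.47 ± 0.15 (adjusted p = 0.0794), and without replicate 2 of DLD1 WT lacking glutamine by 0.70 (0.0268).

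Without glutamine in HCT116, where 24.6% of all tested genes were called (12.3% higher and 12.4% lower in Mut), 6 members were higher and 2 lower in Mut. JUN differed by 2.60 ± 0.10 (6.05-fold; adjusted p = 8.51e-07), KLF6 by 1.19 ± 0.15 (2.28-fold; 0.000316), FOSL2 by 1.16 ± 0.11 (2.23-fold; 5.61e-05) and FOSL1 by 1.06 ± 0.12 (2.08-fold; 0.000153). EGR1 (0.51 ± 0.13; adjusted p = 0.0138) and JUND (0.39 ± 0.13; 0.0446) were the smaller 2 of the 6. JUNB (-0.81 ± 0.10; adjusted p = 0.000200) and IER3 (-0.37 ± 0.09; 0.0148) were lower in Mut, as in DLD1. FOS, not called, differed by 0.70 ± 0.32 (adjusted p = 0.148) and passed with each line fitted separately (0.0377). FOSB differed by 0.10 ± 0.23 (adjusted p = 0.812). Mut and WT arrays did not overlap for any of the 10 members, against 59.5% of all tested genes. With 1 array left out, the JUND call was lost in 10 of 16 fits (0.0508 to 0.182), the EGR1 call without HCT116 Mut replicate 1 (0.0649) or 2 (0.0554) or HCT116 WT replicate 1 (0.0961) lacking glutamine, and the IER3 call without HCT116 Mut replicate 2 (0.102) or HCT116 WT replicate 1 (0.0917) lacking glutamine. With each line fitted separately, JUND (0.0753), EGR1 (0.0753) and IER3 (0.0573) lost these calls, and IER3 also lost it with another of its probe sets (0.137). JUND further lost its call with no filter on dim genes (adjusted p = 0.0695), quantile normalization (0.0587) or arrays shifted to a common median (0.0627).

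**Figure D3:**
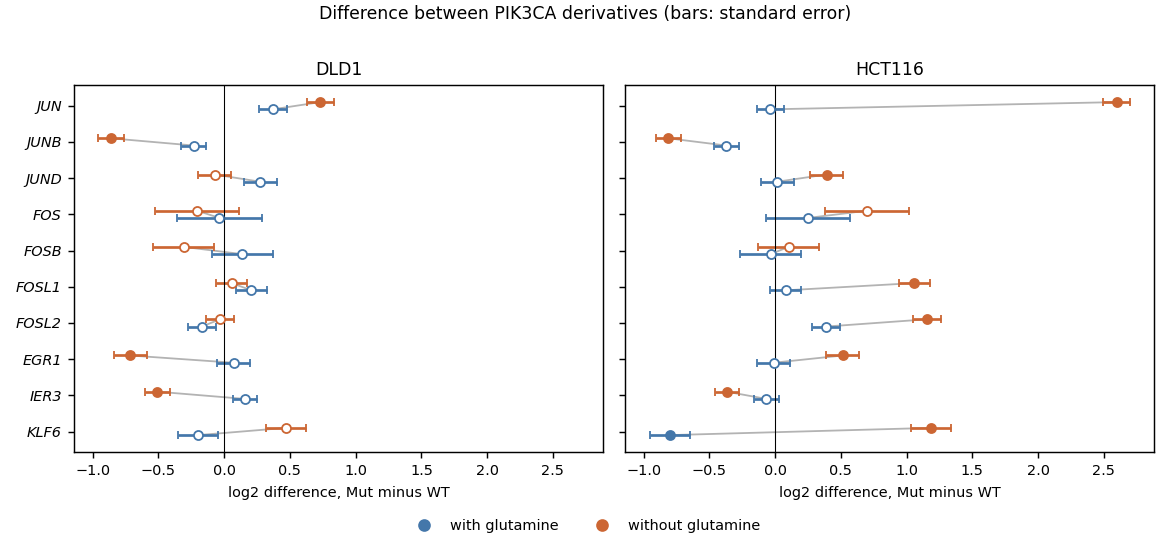
Log2 difference Mut minus WT (horizontal axis) of each gene in DLD1 (left) and HCT116 (right), with and without glutamine, with bars of 1 standard error and filled circles where the adjusted p was under 0.05. JUN lies at -0.04 with glutamine and 2.60 without it in HCT116, KLF6 crosses from -0.80 to 1.19, and JUNB lies below zero in all 4 comparisons, called in the 2 without glutamine.

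The test of the interaction asks whether the change on withdrawal itself differed between Mut and WT. In HCT116 it called JUN, KLF6, FOSL1 and FOSL2, with the values given above, where 9.49% of all tested genes were called (4.75% higher and 4.75% lower). JUNB, with -0.44 ± 0.14 (adjusted p = 0.0691), and EGR1, with 0.52 ± 0.18 (0.0989), were next in HCT116. In DLD1 it called IER3 alone (-0.67 ± 0.13; adjusted p = 0.0495), where 0.823% of all tested genes were called (0.255% higher and 0.568% lower), and the IER3 call was lost in each of the 16 fits without 1 array (0.0672 to 0.139). EGR1, with -0.79 ± 0.18 (adjusted p = 0.0710), and JUNB, with -0.63 ± 0.14 (0.0605), were next in DLD1. Whether the interactions differed between the 2 lines was not tested.

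Between the lines, with glutamine and over both derivatives, 2 members were higher and 4 lower in DLD1, where 47.0% of all tested genes were called (24.5% higher and 22.5% lower). EGR1 (1.07 ± 0.09; adjusted p = 2.73e-06) and FOSL2 (0.76 ± 0.08; 9.51e-06) were higher in DLD1. FOSL1 (-1.38 ± 0.08; adjusted p = 1.92e-07), JUND (-0.99 ± 0.09; 4.54e-06), IER3 (-0.72 ± 0.07; 5.05e-06) and KLF6 (-0.34 ± 0.11; 0.0225) were lower, KLF6 losing its call in 5 of the 16 fits without 1 array (0.0505 to 0.0772). The response to withdrawal, averaged within each line, differed for 4 members, where 19.0% of all tested genes were called (10.0% higher and 8.93% lower). Beside IER3 and EGR1 these were KLF6 (0.53 ± 0.15 more in DLD1; adjusted p = 0.0342), lost in 9 of the 16 fits without 1 array (0.0565 to 0.0778), and FOSL2 (0.36 ± 0.11; 0.0385), lost in 14 of them (0.0535 to 0.0839).

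Several genes whose proteins pair with JUN or FOS from outside their families also rose. Of 18 such genes, of the ATF, BATF, JDP2, MAF and cap-n-collar families, 12 were tested. Of these, 7 rose in DLD1 Mut, 7 in DLD1 WT, 8 in HCT116 Mut and 5 in HCT116 WT, and 0 fell, also at an unadjusted p under 0.05. That is 58.3%, 58.3%, 66.7% and 41.7% of the 12, against 16.8%, 14.0%, 16.4% and 10.3% of all tested genes that rose. The count in HCT116 WT was 3 without replicate 1 with glutamine, or without replicate 1 or 2 lacking it. The median change was 0.51, 0.63, 0.49 and 0.34 in these derivatives, against -0.03, 0.01, 0.00 and 0.01 over all tested genes. ATF3, a stress-induced partner of JUN, rose by 2.14 ± 0.26, 2.38 ± 0.26 and 1.95 ± 0.26 in DLD1 Mut, DLD1 WT and HCT116 Mut (adjusted p = 0.000128, 9.61e-05 and 0.000262). In HCT116 WT ATF3 rose by 0.82 ± 0.26 (adjusted p = 0.0496), a call lost in 16 of the alternative fits (0.0534 to 0.259). ATF4, the effector of the amino acid response, rose by 0.52 to 0.99 ± 0.10 in the 4 derivatives (adjusted p = 5.66e-05 to 0.00234). MAFG, a small MAF, rose by 0.74 to 1.00 ± 0.11 (7.20e-05 to 0.000983), and NFE2L1, a cap-n-collar factor, rose by 0.45 to 1.00 ± 0.11 (0.000115 to 0.00791), with the NFE2L1 call in HCT116 Mut lost without replicate 1 with glutamine or replicate 2 without it (0.0599 and 0.0626).

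Of 34 other immediate early genes 30 were tested, and both directions occurred. In DLD1 Mut 14 rose and 6 fell, in DLD1 WT 13 rose and 4 fell, in HCT116 Mut 18 rose and 3 fell, and in HCT116 WT 11 rose and 2 fell. The shares that rose were 46.7%, 43.3%, 60.0% and 36.7%, against 16.8%, 14.0%, 16.4% and 10.3% of all tested genes, and the shares that fell were 20.0%, 13.3%, 10.0% and 6.67%, against 16.8%, 13.0%, 16.5% and 10.1%. The 2 falls in HCT116 WT were 0 without replicate 1 of the arrays lacking glutamine and 1 without any of the other 3 HCT116 WT arrays. The median change was 0.36, 0.30, 0.86 and 0.38. PPP1R15A, which brings a phosphatase to the translation factor eIF2 alpha, rose in all 4, by 2.09 to 3.18 ± 0.11 (adjusted p = 1.93e-07 to 4.87e-06). GADD45B, a stress sensor upstream of the p38 and JNK kinases, rose by 2.56, 2.04, 1.57 and 0.53 ± 0.12, and its call in HCT116 WT (adjusted p = 0.0113) was lost without replicate 1 with glutamine or replicate 1 without it (0.0657 and 0.0799). CCN1, a matricellular protein, rose by 2.74, 1.99 and 2.96 ± 0.17 in DLD1 Mut, DLD1 WT and HCT116 Mut and stood at 0.12 ± 0.17 in HCT116 WT (adjusted p = 0.695). GEM, a small GTPase, fell in DLD1 Mut and DLD1 WT (-1.12 ± 0.14 and -1.61 ± 0.14; adjusted p = 0.000185 and 3.10e-05) and rose in HCT116 Mut and HCT116 WT (2.97 ± 0.14 and 1.44 ± 0.14; 7.73e-07 and 7.76e-05). KLF10, a relative of KLF6, rose by 0.83, 1.57, 0.89 and 0.84 ± 0.09. Among those that fell, DUSP2, a phosphatase of mitogen-activated kinases, changed by -0.76 ± 0.10 on average (adjusted p = 6.19e-05) but was not called in HCT116 Mut (-0.34; 0.218). ZFP36L2, an RNA-binding protein that shortens the life of such transcripts, fell in DLD1 Mut and HCT116 Mut (-0.68 ± 0.14 and -1.22 ± 0.14; adjusted p = 0.00417 and 0.000119), and was not called in DLD1 WT (-0.28; 0.187) or HCT116 WT (-0.02; 0.947). IER5L changed by -1.35 ± 0.19 in both DLD1 Mut and HCT116 Mut (0.000282 and 0.000314). In DLD1 WT it changed by -0.55 ± 0.19 (0.0505) and in HCT116 WT by 0.51 ± 0.19 (0.0818), neither of them called. PTGS2, the inducible cyclooxygenase, fell in DLD1 WT (-1.74 ± 0.18; adjusted p = 6.93e-05), with values of 0.15 to 0.24 elsewhere, none of them called, and SIK1 fell in HCT116 WT (-0.49 ± 0.14; 0.0292), a call lost without any 1 of 3 HCT116 WT arrays (0.0909 to 0.205 with the separate fit of each line).

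**Figure D4:**
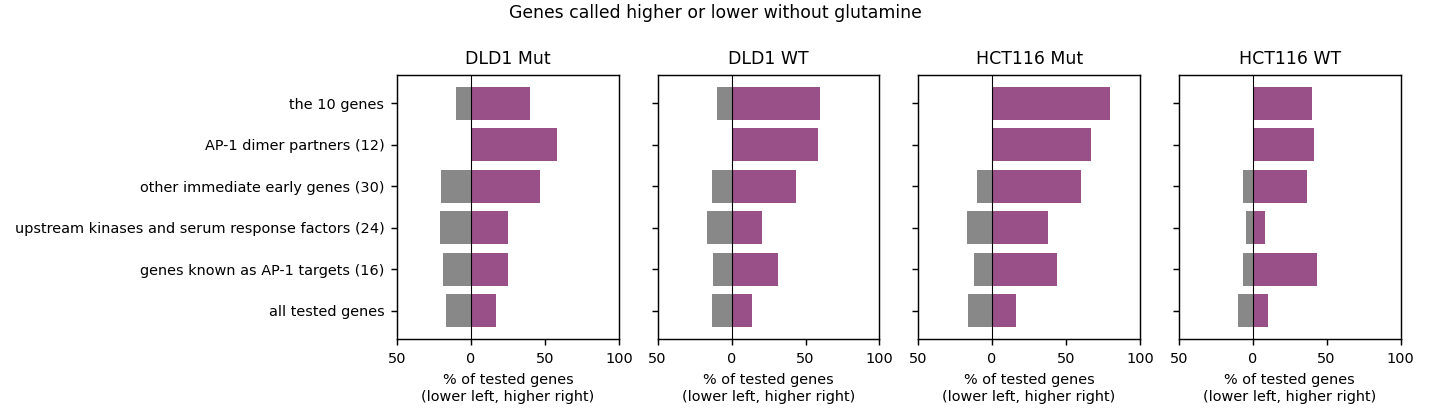
Percent of tested genes (horizontal axis) called higher (right of zero) or lower (left of zero) without glutamine, for the 10 genes, 4 lists of related genes (number tested in brackets) and all tested genes, in each derivative. The bar of the AP-1 dimer partners has no part left of zero in any derivative, and the kinase list has parts on both sides, its left part in HCT116 WT being 1 gene.

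Of 29 kinases and serum response factors that act upstream of AP-1, 24 were tested. In DLD1 Mut 6 rose and 5 fell, in DLD1 WT 5 rose and 4 fell, in HCT116 Mut 9 rose and 4 fell, and in HCT116 WT 2 rose and 1 fell. The shares that rose were 25.0%, 20.8%, 37.5% and 8.33%, against 16.8%, 14.0%, 16.4% and 10.3% of all tested genes, and the shares that fell were 20.8%, 16.7%, 16.7% and 4.17%, against 16.8%, 13.0%, 16.5% and 10.1%. The rises in HCT116 Mut stood furthest above the share of all genes, and with 24 genes tested the other differences rest on few genes. The 9 rises in HCT116 Mut were 5 without replicate 1 of that derivative with glutamine, and the 5 in DLD1 WT were 3 without replicate 1 with glutamine or without replicate 1 or 2 lacking it. In HCT116 WT the 2 rises were 1 without replicate 2 with glutamine or without replicate 1 or 2 lacking it. The median change was 0.11, 0.05, 0.07 and 0.04. MAP3K2, a kinase kinase of the JNK and ERK5 branches, rose in all 4 derivatives, by 1.06, 0.76, 0.94 and 0.44 ± 0.11. MAPK8, which encodes the JUN kinase JNK1, rose in DLD1 Mut, DLD1 WT and HCT116 Mut by 0.87, 0.97 and 0.57 ± 0.15 (adjusted p = 0.00114, 0.000810 and 0.0128), and stood at 0.35 ± 0.15 in HCT116 WT (0.130). MAP2K3, a kinase of p38, rose in both Mut derivatives, by 0.56 and 1.45 ± 0.09, and was not called in the WT derivatives (adjusted p = 0.994 and 0.869). MAPK3, which encodes ERK1, fell in DLD1 Mut and HCT116 Mut (-0.58 ± 0.12 and -0.98 ± 0.12; adjusted p = 0.00320 and 0.000120). It was not called in DLD1 WT (0.14, adjusted p = 0.424) or HCT116 WT (-0.33, 0.0726). ELK3, a ternary complex factor that binds with serum response factor, fell in DLD1 Mut and DLD1 WT (-0.77 ± 0.12 and -0.85 ± 0.12) and rose in HCT116 Mut and HCT116 WT (1.28 ± 0.12 and 0.87 ± 0.12), with adjusted p-values of 3.20e-05 to 0.000764. MAP3K5, which encodes ASK1, fell in DLD1 Mut and DLD1 WT (-1.14 ± 0.17 and -0.88 ± 0.17). It was not called in HCT116 Mut (-0.43, adjusted p = 0.0851) or HCT116 WT (0.06, 0.858). MAP3K7, which encodes TAK1, fell by 0.48 on average (-0.48 ± 0.05; adjusted p = 8.00e-06). MAP3K7 was the 1 fall in HCT116 WT (adjusted p = 0.0394), and it was lost in 15 alternative fits (0.0501 to 0.164): with no filter on dim genes, quantile normalization, either replicate block, separate fits, and without any 1 of 10 arrays, among them all 4 of HCT116 WT. MAP3K2 in HCT116 WT (0.0144) was lost without 3 arrays of that derivative (0.0545 to 0.109).

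Of 30 genes known as AP-1 targets 16 were tested. In DLD1 Mut 4 rose and 3 fell, in DLD1 WT 5 rose and 2 fell, in HCT116 Mut 7 rose and 2 fell, and in HCT116 WT 7 rose and 1 fell. The shares that rose were 25.0%, 31.2%, 43.8% and 43.8%, against 16.8%, 14.0%, 16.4% and 10.3% of all tested genes, and the shares that fell were 18.8%, 12.5%, 12.5% and 6.25%, against 16.8%, 13.0%, 16.5% and 10.1%. In DLD1 Mut the share that rose stood least above that of all genes. The count of falls there depended on single DLD1 WT arrays, and with 16 genes tested all these shares rest on few genes. The median change was 0.09, 0.15, 0.24 and 0.23, against -0.03, 0.01, 0.00 and 0.01 over all tested genes. LAMB3, a chain of laminin-332, rose in all 4 derivatives, by 1.82, 1.45, 3.27 and 1.61 ± 0.11 (adjusted p = 1.05e-07 to 1.05e-05). VEGFA, the endothelial growth factor, rose by 1.24, 1.94, 0.41 and 0.82 ± 0.11, the VEGFA call in HCT116 Mut (0.0178) being lost without replicate 2 with glutamine or replicate 2 without it (up to 0.115 over these and the separate fit). ITGA2, a collagen receptor subunit, rose in HCT116 Mut and HCT116 WT by 1.23 and 0.82 ± 0.11, and was at 0.26 and -0.17 in the DLD1 derivatives. PLAU, the urokinase gene, rose in HCT116 WT by 1.56 ± 0.15 (adjusted p = 6.69e-05) and was not called elsewhere. TGFB1 fell in all 4, changing by -1.40, -0.83, -1.14 and -0.41 ± 0.10, and its HCT116 WT call (0.0167) was lost without any 1 of the 4 arrays compared (0.0508 to 0.0938 with the separate fit of each line). F3, which encodes tissue factor, rose in DLD1 Mut and DLD1 WT (0.81 and 0.98 ± 0.11) and fell in HCT116 Mut (-0.78 ± 0.11; adjusted p = 0.000416). It stood at 0.05 ± 0.11 in HCT116 WT (adjusted p = 0.825).

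Tested genes other than the members were also sorted by the letters in their promoters. Over the 11727 with a promoter in the table, 26.3% rose and 25.0% fell on average over the 4 derivatives. Of the 588 with TGACTCA, 34.5% rose and 13.9% fell. Of the 290 with TGACATCA, 30.3% rose and 14.8% fell. Of the 184 with a CArG box, 29.9% rose and 22.3% fell, and of the 408 with TGACGTCA, 31.4% rose and 26.2% fell. Unequal shares were also seen for other letters: of the 347 with TGATGNAA 30.5% rose and 18.2% fell, and of the 1104 with TATAAA 26.0% rose and 18.0% fell. For GCGNGGGCG (2134 genes) the shares were 28.2% and 27.3%, for GGGCGG (8513) 27.9% and 26.8%, and for CCAAT (4888) 27.2% and 27.0%. In the single derivatives the share of TGACTCA genes that rose was 22.4% in DLD1 Mut, 18.9% in DLD1 WT, 24.8% in HCT116 Mut and 16.7% in HCT116 WT, against 18.6%, 15.2%, 17.7% and 11.0% of all genes with a promoter. The share that fell was 8.84%, 8.67%, 9.18% and 4.59%, against 18.1%, 14.0%, 17.8% and 11.1%. TGATGNAA genes rose in 23.1%, 23.3%, 18.2% and 16.1% and fell in 13.3%, 9.80%, 17.0% and 7.20% in the same order. These shares are descriptions with no test, and base composition differs between such promoters.

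The closest gene patterns were sought for the 8 members whose group means span over 1 unit, which leaves out FOS and FOSB. The search covered the tested genes other than the 10 members. Closeness was the root mean square difference of centred log2 group means over the 8 groups. For FOSL1, whose own group means vary by 0.89 (root mean square), the closest were BBC3 (0.12), a BH3-only gene, MEF2D (0.16) and PPP1R1C (0.21). For KLF6, with its own 0.84, they were ABL2 (0.19), CIDECP1 (0.24) and DUSP1 (0.26), the last an immediate early phosphatase. For FOSL2 (0.69) they were USP43 (0.10), TFPT (0.10) and ZNF416 (0.12), and for JUND (0.59) PPM1D (0.09), HEATR6 (0.12) and HPCAL1 (0.12). JUN, with 1.20, had no gene closer than ALOXE3 (0.38), LPXN (0.39) and ZC3H6 (0.40), and KLF6 was its nearest member (0.53), at rank 14 of 15675, while JUN stood at rank 292 for KLF6. The nearest member of each of the other 6 stood at rank 114 to 868. For JUNB (0.38) the closest genes were MYO5A (0.13), RN5S449 (0.13) and HECA (0.14). For EGR1 (0.50) they were SVBP (0.10), LOC100294145 (0.12) and ERMAP (0.15), and for IER3 (0.74) ITPR3 (0.21), SNORA5A (0.21) and LOC100506730 (0.22). RN5S449 was dim, with group means from 1.35 to 2.18, where the lowest mean level tested was 1.65. CIDECP1 (2.60 to 4.79) and LOC100506730 (2.87 to 5.09) were also at low levels. The members are also short genes: 9 of the 10 are shorter than the median tested gene of 23300 bases, from 1349 bases for IER3 to 24460 for FOSL2.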

How the data were processed

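The authors deposited 1 linear intensity per probe set and array, and the normalization that made them is not given in the sources used here. Per the labels' protocols, total RNA was labelled with biotin by the Affymetrix whole-transcript method. The log2 of each intensity was taken with no pseudocount. Of 53617 probe sets, 23871 name 1 gene, 1842 several and 27904 none. The brightest single-gene probe set stood for each of 22395 genes. Group means of the 16 arrays were fitted with limma 3.58.1 (lmFit, eBayes; R 4.3.3) in 1 model of 8 groups with 8 residual degrees of freedom, over the 15676 genes in the upper 70% of mean log2. The fit was tested on simulated data. Named list genes were those with the smallest adjusted p in each direction, up to 4 on average over the derivatives and up to 2 in each derivative. TRIB1, EREG, MAP3K1, RPS6KA1 and CD44, which that rule also names, are given in the closing section. The number of arrays limits the precision. The members and lists were chosen with earlier results of these data known. Alternatives were other filters, normalizations, probe set rules, variance models, a replicate block, an added constant, separate fits and leaving out each array. Whether the replicate numbers pair the samples was checked: deviations of same-numbered arrays correlated at -0.036 to 0.033 over 28 pairs of groups, so they were not treated as pairs.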

Additional observations from a re-analysis of the deposited data

Results flagged for a closer look

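The response to glutamine withdrawal, averaged within each line, differed between DLD1 and HCT116 by the test of that difference for 4 members. The same test called 19.0% of all tested genes. DLD1 minus HCT116 was -1.19 for IER3, -0.49 for EGR1, 0.53 for KLF6 and 0.36 for FOSL2. The EGR1, KLF6 and FOSL2 calls did not hold in every fit without 1 array, as given above.

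The change on withdrawal differed between Mut and WT by the interaction test for 1 member in DLD1 and 4 in HCT116. Of all tested genes the same test called 0.823% in DLD1 and 9.49% in HCT116. In DLD1 the difference was -0.67 for IER3. In HCT116 it was 2.63 for JUN, 1.99 for KLF6, 0.98 for FOSL1 and 0.77 for FOSL2. Groups of 2 arrays are too small to single out an array.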

How the results depend on the processing

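Counts of members called were recomputed under each alternative. For the response in DLD1 minus that in HCT116, 4 members were called as reported and 2 with no filter on dim genes. For Mut minus WT with glutamine in DLD1 (0 as reported), 1 was called with only genes above the median level, 1 with a trended robust variance and 1 with 10 added before the log. For the same in HCT116 (1 as reported), 3, 2 and 2 were called in these settings, and 0 with the lines fitted separately. For the DLD1 interaction (1 as reported), 0 were called with no filter, arrays shifted to a common median, averaged probe sets or separate fits, 2 with quantile normalization, and 3 (above the median), 4 (trended) and 3 (10 added). For the HCT116 interaction (4 as reported), 7 were called with a trended variance.

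With the replicate block, either over all arrays or within each line, 0 members were called in the DLD1 interaction. The replicate block left every other count of members within 1.5 times of that reported, and the FOSL2 line difference lost its call under the block within lines (adjusted p = 0.0631), as did JUND in Mut minus WT without glutamine in HCT116 (0.0565). Over all tested genes the DLD1 interaction called 129, and 76 and 22 under these blocks. The 1 fall among the upstream kinases in HCT116 WT was 0 under both.

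Leaving out 1 array at a time gave 5 to 6 members called for withdrawal in DLD1 Mut, 5 to 7 in DLD1 WT, 6 to 8 in HCT116 Mut, 3 to 4 in HCT116 WT and 7 to 8 on average. It gave 1 to 4 for the line difference in response, 0 to 0 and 0 to 2 for Mut minus WT with glutamine in DLD1 and HCT116, 3 to 5 and 5 to 8 without glutamine, 0 to 1 and 4 to 5 for the interactions in DLD1 and HCT116, and 5 to 7 between the lines with glutamine. The 5 in HCT116 without glutamine came without HCT116 Mut replicate 2 or HCT116 WT replicate 1 lacking glutamine. No called change of a member changed sign under any alternative; signs of values not called were not compared.

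CD44 in HCT116 WT turned from 0.11, not called, to -0.75 with the mean of its probe sets (adjusted p = 0.00378). Over all tested genes, counts moved by over 1.5 times for HCT116 WT withdrawal (3189; 2070 with separate fits; lowest 2054 without 1 array), Mut minus WT with glutamine in DLD1 (910; 1379 trended, 599 separate; lowest 459) and HCT116 (507; 963 trended, 901 with 10 added, 89 separate; lowest 199), without glutamine in DLD1 (1610; lowest 709), the DLD1 interaction (129; 46 with no filter, 328 above the median, 602, 545 and 3; lowest 15) and the HCT116 interaction (1488; 430 separate; lowest 842). In HCT116 WT the falls among other immediate early genes went from 2 to 0 with separate fits, and among AP-1 targets in DLD1 Mut from 3 to 5 with a trended variance, in HCT116 WT from 1 to 0 with separate fits and to 2 with no filter or averaged probe sets, and in HCT116 Mut from 2 to 5 above the median level or with 10 added and to 4 with a trended variance. The cause was not tested.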

Other observations

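Of the genes known as AP-1 targets, EREG, which encodes the growth factor epiregulin, rose in DLD1 Mut, DLD1 WT and HCT116 Mut by 0.92, 0.45 and 0.58 ± 0.08 and stood at 0.02 in HCT116 WT (adjusted p = 0.910). CD44, an adhesion receptor, fell in DLD1 Mut and DLD1 WT (-1.84 ± 0.16 and -1.69 ± 0.16) on its brightest probe set. On that probe set it was not called in HCT116 Mut (-0.42, adjusted p = 0.0641) or HCT116 WT (0.11, 0.697). MAP3K1, a kinase kinase of the JNK branch, rose in DLD1 Mut and HCT116 Mut by 0.83 and 0.70 ± 0.10. It was not called in HCT116 WT (0.19, adjusted p = 0.209). In DLD1 WT MAP3K1 rose by 0.36 (adjusted p = 0.0198), lost without any 1 of 3 DLD1 WT arrays (0.0683 to 0.126). RPS6KA1, which encodes a ribosomal S6 kinase, changed by -0.25 ± 0.05 on average (adjusted p = 0.00198), with falls in DLD1 Mut and DLD1 WT (-0.50 and -0.51). It was not called in HCT116 Mut (-0.03, adjusted p = 0.853) or HCT116 WT (0.05, 0.821). TRIB1, a pseudokinase, changed by -0.25 ± 0.05 on average (adjusted p = 0.00261), and fell in DLD1 Mut (-0.33; 0.0354) and DLD1 WT (-0.62; 0.00147). It was not called in HCT116 Mut (-0.19, adjusted p = 0.200) or HCT116 WT (0.16, 0.351).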
